A study of Mus musculus with 34 samples.

Results

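Interferon-stimulated genes are the genes that a cell switches on when an interferon binds its receptor. The set examined here was given as 33 mouse gene symbols, and a symbol counted as found where the array's annotation lists a probeset under that symbol alone. Of the 33 genes, 29 were found, among 19938 genes on the array. Isg15, Gbp2 and Igtp lie on probesets listed with several symbols and Ifi44 had no probeset of its own, so these 4 were not analysed here. Counting only probesets listed with 1 symbol, Irf1 was measured by 2, of which that with the highest mean was taken, and the other 28 members by 1 each. Oas1a also lies on a probeset listed with several symbols, which was not used. The 29 members were grouped by role into 4 transcription factors, 3 sensors of viral nucleic acid, 11 antiviral effectors, the ISG15-removing protease Usp18, 3 genes of ADP-ribosylation, 3 GTPases and 4 others.

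The study followed 2 mouse pre-B acute lymphoblastic leukemia lines through drug treatment, and each line came from a single BCR/ABL transgenic mouse, so all groups carry BCR/ABL. Bin-2, from a mouse of mixed background, was kept in 50 nM nilotinib, an inhibitor of the ABL tyrosine kinase, or in 0.25 µM lonafarnib, an inhibitor of farnesyltransferase. Line 8093, from a C57Bl/6J mouse, was kept in 20 nM nilotinib or 1 µM lonafarnib. RNA was taken before drug (day 0, the start), at a midpoint when most cells had died, and at an end point when the culture grew in the drug. The midpoint was day 3, or day 4 for 8093 in lonafarnib, and viability was then 5 to 10%, or 20% for 8093 in lonafarnib. The end was day 21 (Bin-2, nilotinib), day 30 (Bin-2, lonafarnib), day 20 (8093, nilotinib) and day 26 (8093, lonafarnib), with a viability of about 90%. All cells, at the start too, grew with interleukin-3 on irradiated mouse embryonic fibroblasts, and loose or floating cells were harvested. Each of the 12 groups had 3 arrays, from separate plates, except the 8093 nilotinib end and the 8093 lonafarnib end with 2 each, so p-values measure the spread between plates of 1 line. At the midpoints, RNA of living and dying cells cannot be told apart.

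Type I interferons bind a receptor whose kinases JAK1 and TYK2 phosphorylate STAT2, which acts with IRF9 at a DNA motif called the interferon-stimulated response element (ISRE). Interferon-gamma acts through JAK1 and JAK2 and a motif called the gamma-activated site (GAS), and IRF1 is a well-known target of it. Many of these genes are also kept at a basal level without infection, and the products of the pathway block viral replication, sense viral nucleic acid, or damp the response.

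The arrays measured log2 signal, so a difference of 1 is a change of 2-fold, and a gene was called when its limma p-value, adjusted over all 19938 genes, was under 0.05. The mean log2 signal of the 29 members lay between 6.11 and 6.67 on the 18 Bin-2 arrays and between 5.97 and 6.22 on the 16 arrays of 8093. Ifit1, Ifit3, Mx1 and Iigp1 had mean signals under the lower quartile of all genes (4.08), where a low signal cannot be told apart from background. The spread of probeset values within an array (interquartile range) was 2.94 to 3.13 on the 8093 nilotinib midpoint arrays and 3.05 to 3.25 on the Bin-2 lonafarnib midpoint arrays, against 3.36 to 3.59 on the other 28 arrays.

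Marker genes of cell types moved on the same arrays as the members. In the 8093 nilotinib course, the mean of 10 mast cell markers lay at 3.84 to 4.21 at the start, 9.41 to 10.30 at the midpoint and 11.61 to 11.67 at the end, and the mean of 12 macrophage markers at 4.91 to 5.12, 8.61 to 9.51 and 8.21 to 9.64 at the same times. The mean of 11 pre-B cell markers in that course lay at 8.31 to 8.57 at the start, 7.93 to 8.49 at the midpoint and 5.18 to 5.32 at the end. That of 11 fibroblast markers lay at 4.43 to 4.52 at the start, 4.88 to 5.11 at the midpoint and 4.27 to 4.38 at the end. At the midpoint 7 of these 11 fibroblast markers were called higher. Against the start, 10 of the 10 mast cell and 11 of the 12 macrophage markers were called higher at the end, and 10 of the 11 pre-B markers lower. The end arrays of that course therefore did not carry their label's markers at the level of the start: Vpreb1, a part of the pre-B cell receptor, averaged 5.64 at the end, against 10.05 at the start, and Cpa3, a mast cell protease, averaged 13.59 at the end, against 4.70 at the start. In the Bin-2 nilotinib course the pre-B mean was 8.98 to 9.22 at the end, against 9.10 to 9.22 at the start, while the mast cell mean was 7.42 to 7.68 at the end, against 4.33 to 4.39 at the start. The macrophage mean was 8.32 to 9.64 at the end, against 5.57 to 5.96 at the start of that course. In a mixed sample, fewer cells of a type and less RNA per cell cannot be told apart.

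RefSeq promoter windows of the mouse build GRCm38.p6, from 250 bases before to 50 bases after the start of transcription, were available for 21 of the 29 members. The ISRE core GAAANNGAAA, searched on both strands, stood in the windows of 11 of the 21 members, against 3.99% of 27025 genes. The GAS core TTCNNNGAA, which reads the same on both strands, stood in 7 of the 21 members, against 9.55% of the same genes. The windows of 4 members whose signals carry the results below are shown with the motif in capitals. Gbp3 (chr3:142559794-142560093, plus strand) has a pair of overlapping ISRE cores on the opposite strand that begin 45 and 39 bases before the start. Irf1 (chr11:53769764-53770063, plus strand) has a GAS core that begins 90 bases before the start. Ifih1 (chr2:62646206-62646505, minus strand) has an ISRE core that begins at base 33 of the transcript. Stat2 (chr10:128270248-128270547, plus strand) has an ISRE core on the opposite strand that begins 222 bases before the start. A match is a description of these letters and not evidence of binding.
Gbp3: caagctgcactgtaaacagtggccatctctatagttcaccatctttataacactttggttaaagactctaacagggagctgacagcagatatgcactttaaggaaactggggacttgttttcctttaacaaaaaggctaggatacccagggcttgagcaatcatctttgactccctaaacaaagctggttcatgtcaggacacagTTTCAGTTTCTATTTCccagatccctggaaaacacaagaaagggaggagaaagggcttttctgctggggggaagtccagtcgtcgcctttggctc
Irf1: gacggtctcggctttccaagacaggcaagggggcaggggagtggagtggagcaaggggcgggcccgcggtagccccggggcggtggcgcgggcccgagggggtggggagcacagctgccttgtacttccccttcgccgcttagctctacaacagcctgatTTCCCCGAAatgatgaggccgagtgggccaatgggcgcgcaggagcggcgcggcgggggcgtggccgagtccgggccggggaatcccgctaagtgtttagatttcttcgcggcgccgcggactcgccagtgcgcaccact
Ifih1: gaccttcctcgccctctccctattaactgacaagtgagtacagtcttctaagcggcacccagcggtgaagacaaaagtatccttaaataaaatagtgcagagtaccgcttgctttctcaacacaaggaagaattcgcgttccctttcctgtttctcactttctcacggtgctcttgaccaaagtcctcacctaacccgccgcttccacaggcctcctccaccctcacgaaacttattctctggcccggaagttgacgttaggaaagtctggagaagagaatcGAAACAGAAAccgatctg
Stat2: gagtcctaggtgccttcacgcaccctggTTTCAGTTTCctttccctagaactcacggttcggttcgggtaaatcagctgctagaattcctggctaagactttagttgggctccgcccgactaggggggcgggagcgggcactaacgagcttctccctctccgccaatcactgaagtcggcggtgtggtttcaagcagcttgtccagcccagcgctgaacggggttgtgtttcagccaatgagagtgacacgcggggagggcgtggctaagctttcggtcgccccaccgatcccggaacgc

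Under nilotinib, members moved in both directions in 8093 cells. This course held the most calls of the 4, among the members and among all genes alike, so the number of calls is not particular to the members. At the end 9 of the 29 members were higher and 6 lower than at the start, where 44.5% of all genes were called, 19.6% higher and 24.9% lower. The members' median change was 0.12 log2 units, against -0.15 over all genes. At the midpoint 7 members were higher and 5 lower, where 50.1% of all genes were called, 22.6% higher and 27.5% lower, and the members' median was 0.09, against 0.03 over all genes. From midpoint to end, 5 members rose and 6 fell, where 54.5% of all genes were called, 26.7% higher and 27.8% lower. The changes at the midpoint and the end rest on the same start arrays. With genes of mean signal under 5 left out, the median of all genes was -0.22 at the midpoint, of whose calls 31.6% were higher, against 45.1% with all genes, and 0.20 from midpoint to end, of whose calls 65.1% were higher, against 49% with all genes. The marker changes given above ran through the same arrays, and their part in the members' changes was not tested.

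**Figure D1:**
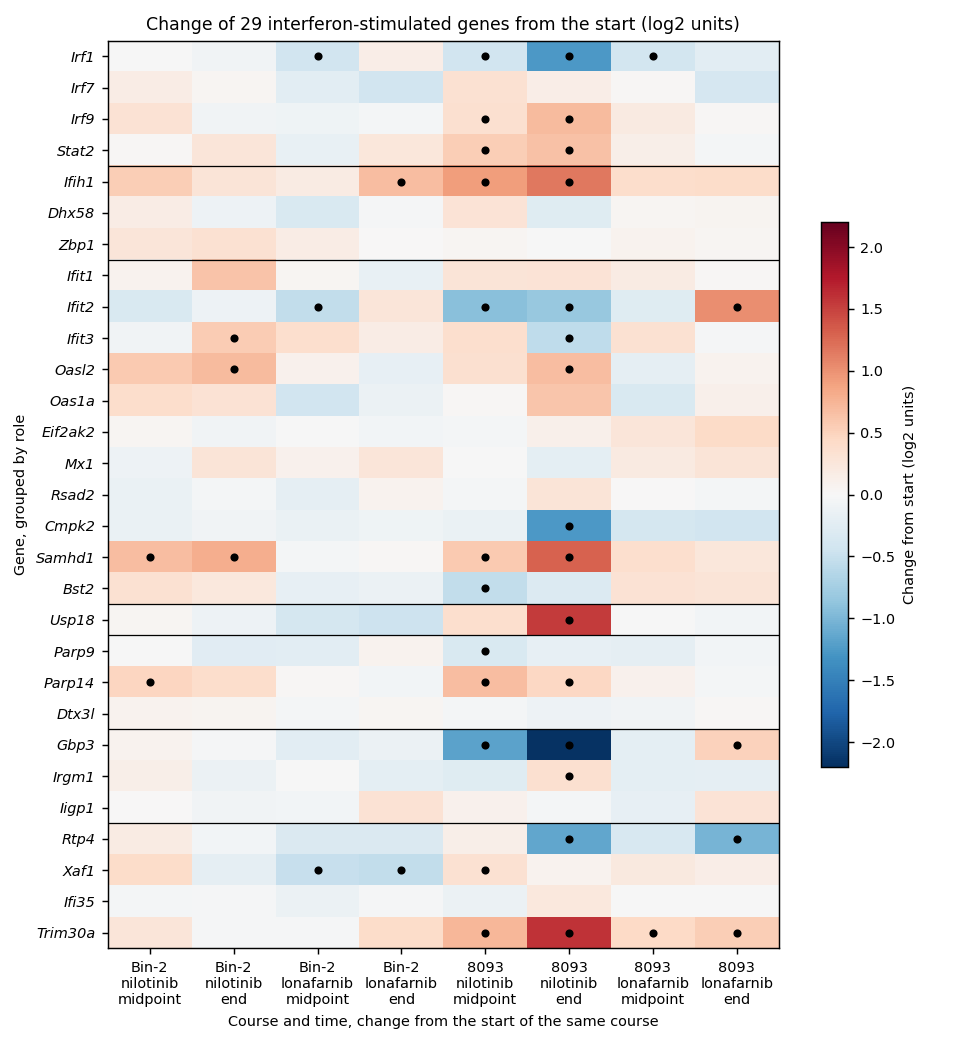
Change of each of the 29 members (rows, grouped by role) from the start of the same course, in log2 units, at the midpoint and the end of the 4 courses (columns). Red is higher and blue lower than at the start, and a dot marks a called change. The 8093 nilotinib end holds 15 of the dots, 9 on red and 6 on blue, from Trim30a at 1.59 to Gbp3 at -2.18.

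Of the transcription factors in this course, Irf9 and Stat2 rose and Irf1 fell. Irf9, which gives STAT2 its contact with the ISRE, read 6.59, 6.65 and 6.59 at the start, 7.05, 7.00 and 6.83 at the midpoint and 7.30 and 7.30 at the end. Stat2, its partner, read 7.09, 6.78 and 6.97 at the start, 7.44, 7.70 and 7.31 at the midpoint and 7.76 and 7.43 at the end. For both genes every later array lay above every start array, and the end changes were 0.69 ± 0.12 (SE, adjusted p = 1.45e-05) for Irf9 and 0.65 ± 0.13 (adjusted p = 7.12e-05) for Stat2. Irf1, an early target of interferon-gamma, went the other way, with 8.05, 7.78 and 7.78 at the start, 7.53, 7.29 and 7.54 at the midpoint and 6.51 and 6.69 at the end. Its end arrays lay below all others of the course, 1.27 ± 0.12 under the start (adjusted p = 2.77e-10). Its midpoint change of -0.42 was not called under quantile normalization (-0.06, adjusted p = 0.709) or with the mean of its probesets (-0.18, adjusted p = 0.139). Irf7, which drives interferon-alpha genes, was not called at either time (0.33 at the midpoint and 0.15 at the end).

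Among the sensors, Ifih1, the receptor MDA5 for long double-stranded RNA, read 5.54, 5.35 and 5.32 at the start, 6.39, 6.49 and 6.07 at the midpoint and 6.92 and 6.20 at the end. Each later array lay above the start arrays, and the change was 0.91 ± 0.17 at the midpoint (adjusted p = 3.84e-05) and 1.16 ± 0.19 at the end (adjusted p = 5.38e-06). Dhx58, the related protein LGP2, was not called against the start at either time but was 0.56 lower at the end than at the midpoint (adjusted p = 0.00496), a call lost without end replicate 1 (-0.51, adjusted p = 0.0504). Zbp1, a sensor of Z-form nucleic acid that can trigger cell death, differed by 0.04 at the midpoint and -0.01 at the end.

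The antiviral effectors split. Samhd1, which cuts deoxynucleotides and so starves viral DNA synthesis, read 7.72, 7.94 and 7.75 at the start, 8.32, 8.87 and 7.95 at the midpoint and 9.38 and 8.81 at the end. Its end arrays lay 1.29 ± 0.18 above the start (adjusted p = 3.58e-07), while the midpoint call at 0.58 was lost without midpoint replicate 2 (0.33, adjusted p = 0.0669). Cmpk2, a mitochondrial nucleotide kinase, read 5.57, 5.41 and 5.39 at the start, 5.47, 5.09 and 5.35 at the midpoint and 4.04 and 4.34 at the end. Only the end arrays of the course stood apart from its start, 1.26 ± 0.16 lower (adjusted p = 1.04e-07). Ifit2, an RNA-binding inhibitor of translation, was low at both later times, with 5.44, 5.20 and 5.59 at the start, 4.48, 4.54 and 4.46 at the midpoint and 4.44 and 4.70 at the end. Its change was -0.91 ± 0.18 at the midpoint (adjusted p = 9.04e-05) and -0.83 ± 0.20 at the end (adjusted p = 0.000892).

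Other effectors changed less firmly in this course. Oasl2, an oligoadenylate synthetase-like protein, was 0.68 higher at the end with arrays at 6.74 and 5.77, and the call was lost without end replicate 1 (0.19, adjusted p = 0.592). Ifit3, one of the dim members, was 0.56 lower at the end (adjusted p = 0.0182), a call lost without start replicate 1 or 3 or end replicate 2 (-0.48 to -0.51, with adjusted p up to 0.132) or under quantile normalization (-0.38, adjusted p = 0.122). Ifit3 was also 0.93 ± 0.19 lower at the end than at the midpoint (adjusted p = 0.000219), with 3.08 and 2.92 on the end arrays, against 3.84, 4.08 and 3.85 on the midpoint arrays. Bst2, the membrane protein tetherin, was 0.54 lower at the midpoint (adjusted p = 0.000679) with 7.52, 7.85 and 7.61, against 8.23, 8.11 and 8.25 at the start, and quantile normalization took the change to -0.17 (adjusted p = 0.274). Ifit1, Oas1a, Eif2ak2, Mx1 and Rsad2, which include the kinase PKR (Eif2ak2) and viperin (Rsad2), were called at neither time, with end changes between -0.21 and 0.61. Most inbred mouse strains carry a defective Mx1 allele.

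Usp18, the protease that removes ISG15 from proteins and also damps signalling at the type I receptor, rose late. It read 5.09, 4.67 and 5.12 at the start, 5.21, 5.29 and 5.46 at the midpoint and 6.25 and 6.72 at the end. The end arrays stood clear of both earlier times, 1.53 ± 0.21 above the start (2.89-fold, adjusted p = 2.95e-07) and 1.17 ± 0.21 above the midpoint (adjusted p = 2.72e-05), and the midpoint change of 0.36 was not called. Of the ADP-ribosylation genes, Parp14 read 7.94, 7.67 and 7.77 at the midpoint, against 7.30, 7.05 and 7.00 at the start, a change of 0.68 ± 0.13 (adjusted p = 6.65e-05). Its end call at 0.45 was lost without end replicate 1 (0.15, adjusted p = 0.513). Parp9 was 0.34 lower at the midpoint (adjusted p = 0.00769), but 0.0033 higher under quantile normalization (adjusted p = 0.98) and not called without midpoint replicate 3 (-0.25, adjusted p = 0.0671). Dtx3l, the ubiquitin ligase that pairs with Parp9, was called at neither time.

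Gbp3, a guanylate-binding GTPase, fell the furthest of the 29 members in this course. It read 7.57, 7.57 and 7.59 at the start, 6.60, 6.30 and 6.28 at the midpoint and 5.53 and 5.26 at the end. The groups did not overlap at any pair of times, and the change was -1.18 ± 0.13 at the midpoint (2.27-fold lower, adjusted p = 6.78e-09) and -2.18 ± 0.14 at the end (4.53-fold lower, adjusted p = 8.74e-14). Irgm1, an immunity-related GTPase that acts in autophagy, was 0.35 higher at the end (adjusted p = 0.0401), a call lost with any 1 of the start or end arrays left out (0.28 to 0.43, adjusted p from 0.0535 to 0.25) or under quantile normalization (0.28, adjusted p = 0.0979). Trim30a, a tripartite-motif protein reported in mouse to restrain Toll-like receptor signalling, read 7.72, 7.73 and 8.00 at the start, 8.55, 8.73 and 8.34 at the midpoint and 9.73 and 9.07 at the end. It rose at each step, by 0.73 ± 0.14 at the midpoint (adjusted p = 8.21e-05) and by 1.59 ± 0.16 at the end (3-fold, adjusted p = 7.53e-10). Rtp4, a receptor-transporting protein with antiviral activity, was 1.14 ± 0.26 lower at the end (adjusted p = 0.000668) on arrays at 6.74 and 5.23, and without end replicate 2 the difference was -0.38 (adjusted p = 0.24). Xaf1, an antagonist of inhibitors of apoptosis, was called at the midpoint at 0.33 (adjusted p = 0.049), and the call was lost without any 1 of the 6 arrays (adjusted p 0.0562 to 0.117). Quantile normalization took it to 0.12 (adjusted p = 0.559), and the replicate block, the trended prior and the arrays of the course alone left it at 0.33 with an adjusted p of 0.0561, 0.0579 and 0.0857.

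**Figure D2:**
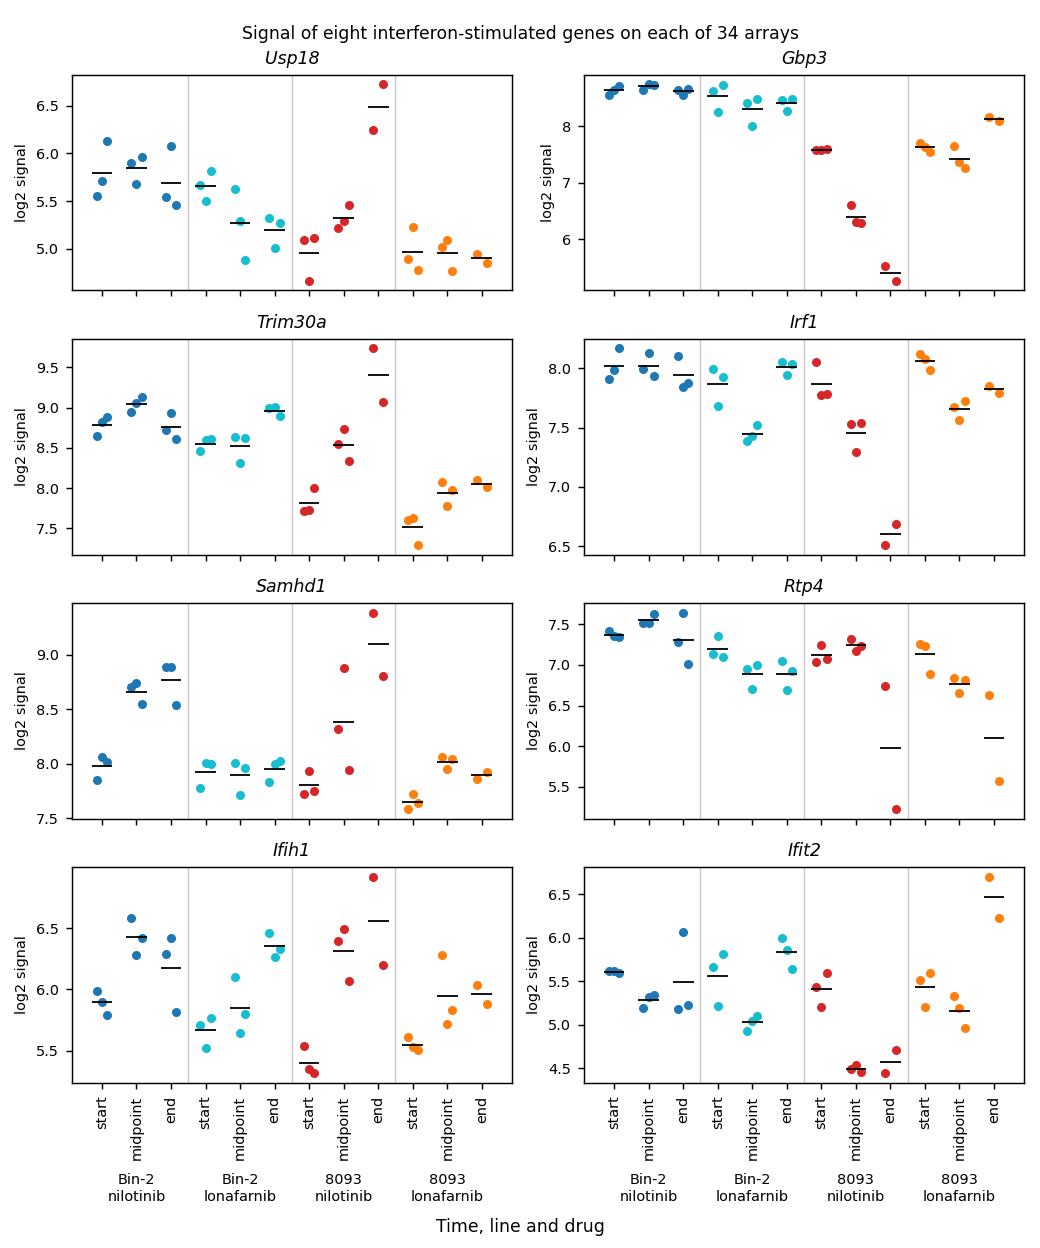
Log2 signal of 8 members on each of the 34 arrays (points) with the group mean (black line), by time within each line and drug. In 8093 under nilotinib (red) Usp18, Trim30a, Samhd1 and Ifih1 were on average highest at the end and Gbp3 and Irf1 lowest, while Rtp4 at the end of both 8093 courses had arrays far apart (6.74 and 5.23 in nilotinib).

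In 8093 under lonafarnib, Ifit2 and Gbp3 were higher at the end than at the start and the midpoint. At the midpoint 1 of 29 was higher and 1 lower, where 10.8% of all genes were called, 3.89% higher and 6.9% lower. At the end 3 were higher and 1 lower, where 8.71% were called, 4.4% higher and 4.31% lower. From midpoint to end 2 members rose and 0 fell, where 6.26% were called, 3.95% higher and 2.31% lower. The mean of the mast cell markers in this course was 3.83 to 3.97 at the start, 5.78 to 7.22 at the midpoint and 5.18 to 5.42 at the end, and that of the pre-B markers 8.48 to 8.56, 8.29 to 8.39 and 8.33 to 8.34. The macrophage mean was 4.97 to 5.02 at the start, 6.34 to 7.23 at the midpoint and 5.15 to 6.26 at the end. At the midpoint 9 of 10 mast cell and 7 of 12 macrophage markers were called higher, and their part in the members' changes was not tested.

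Ifit2 was the clearest change of the 8093 lonafarnib course. It read 5.51, 5.20 and 5.59 at the start, 5.33, 5.19 and 4.96 at the midpoint and 6.70 and 6.22 at the end. Both end arrays lay above all others, 1.30 ± 0.20 above the midpoint (adjusted p = 6.72e-05) and 1.03 ± 0.20 above the start (adjusted p = 0.000937), though the call against the start was lost without end replicate 1 (0.79, adjusted p = 0.0585). Gbp3 read 7.70, 7.64 and 7.54 at the start, 7.64, 7.36 and 7.25 at the midpoint and 8.16 and 8.09 at the end. It was 0.71 ± 0.14 higher at the end than at the midpoint (adjusted p = 0.00169) and 0.50 higher than at the start (adjusted p = 0.0243), and the call against the start was lost without start replicate 2 or 3 or either end array (0.46 to 0.54, adjusted p 0.0533 to 0.151). Trim30a was 0.54 higher at the end (adjusted p = 0.0266) and 0.43 higher at the midpoint (adjusted p = 0.0445). Its end call was lost without start replicate 3 or either end array (0.44 to 0.58, adjusted p 0.125 to 0.158), and its midpoint call without start replicate 1 or 3 or midpoint replicate 1 or 3 (0.33 to 0.48, adjusted p 0.0744 to 0.235). Rtp4 was 1.03 lower at the end (adjusted p = 0.0119) on arrays at 6.63 and 5.57, against 7.26, 7.24 and 6.88 at the start, and without end replicate 2 the difference was -0.50 (adjusted p = 0.508). Irf1 was 0.41 lower at the midpoint (adjusted p = 0.0118), which was not called without start replicate 1 (-0.38) or midpoint replicate 2 (-0.36), under quantile normalization (-0.31) or with the mean of its probesets (-0.12, adjusted p = 0.538).

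The end changes of nilotinib and lonafarnib in 8093 differed for 12 members, 7 higher and 5 lower under nilotinib, where 33.2% of all genes were called, 15.7% higher and 17.4% lower. The drugs, their doses and the days of sampling differ together. Viability was alike at the end, but at the midpoint it was 5 to 10% under nilotinib and 20% under lonafarnib. The pre-B mean at the end was 5.18 to 5.32 under nilotinib and 8.33 to 8.34 under lonafarnib. The mast cell mean at the end was 11.61 to 11.67 under nilotinib and 5.18 to 5.42 under lonafarnib. The part of these markers in the differences was not tested. The largest differences were in Gbp3, at -2.68 ± 0.20 (adjusted p = 5.79e-12), in Ifit2, at -1.86 ± 0.28 (adjusted p = 3.9e-06), and in Usp18, at 1.60 ± 0.29 (adjusted p = 6e-05). Gbp3 and Ifit2 thus ended lower than at the start under nilotinib and higher under lonafarnib. For both genes the call under lonafarnib against the start was lost when single arrays were left out, as given above. At the midpoint 3 members differed, 1 higher and 2 lower under nilotinib, where 26.8% of all genes were called, 9.19% higher and 17.6% lower. These were Gbp3 (-0.98 ± 0.18, adjusted p = 0.000173), Bst2 (-0.85 ± 0.18, adjusted p = 0.000578) and Parp14 (0.59 ± 0.18, adjusted p = 0.0163).

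In Bin-2 cells under nilotinib, Samhd1 was higher than at the start at both later times. At the midpoint 2 of 29 members were higher and 0 lower, where 3.47% of all genes were called, 1.87% higher and 1.6% lower. At the end 3 were higher and 0 lower, where 8.89% were called, 4.95% higher and 3.94% lower. Samhd1 read 7.85, 8.06 and 8.01 at the start, 8.70, 8.74 and 8.54 at the midpoint and 8.88, 8.88 and 8.54 at the end. All 6 later arrays lay above the start arrays, by 0.69 ± 0.16 at the midpoint (adjusted p = 0.00891) and 0.80 ± 0.16 at the end (1.74-fold, adjusted p = 0.000805). The midpoint call was lost without start replicate 1 (0.63, adjusted p = 0.0566) or midpoint replicate 1 (0.67, adjusted p = 0.0521). Parp14 was 0.47 higher at the midpoint (adjusted p = 0.036), a call lost without any 1 of the 6 arrays (0.42 to 0.52, adjusted p 0.0566 to 0.148).

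The remaining end calls of this course were Oasl2 and Ifit3. Oasl2 read 5.40, 5.48 and 5.51 at the start, 5.98, 6.14 and 6.02 at the midpoint and 6.23, 6.66 and 5.59 at the end. It was 0.70 higher at the end (adjusted p = 0.02), a call lost without start replicate 1 or 2 or end replicate 1 or 2 (0.45 to 0.71, adjusted p 0.0572 to 0.221) or under quantile normalization (0.55, adjusted p = 0.0783). Ifit3 was 0.55 higher at the end (adjusted p = 0.0425), a call lost without any of the start arrays or end replicate 1 or 2 (0.43 to 0.61, adjusted p 0.0596 to 0.236) or under quantile normalization (0.50, adjusted p = 0.0648). From midpoint to end 0 members rose and 1 fell, where 1.41% of all genes were called, 0.998% higher and 0.416% lower. That was Xaf1, 0.60 lower (adjusted p = 0.0217), a call lost without midpoint replicate 2 or 3 or end replicate 1 or 3 (-0.53 to -0.60, adjusted p 0.0651 to 0.129). The macrophage mean was 7.63 to 9.00 at the midpoint and the mast cell mean 4.20 to 4.70, beside the start and end values given above. The fibroblast mean was 4.50 to 4.66 at the midpoint, against 4.27 to 4.39 at the start, with 3 of 11 markers called higher. In limma 0 of 10 mast cell markers were called at the midpoint, with 2 at an unadjusted p under 0.05, and 10 of 10 were called higher at the end, while 11 of 12 macrophage markers were called higher at the midpoint and 12 of 12 at the end. The pre-B mean was 9.22, 9.00 and 8.98 on the end arrays, against 9.10 to 9.22 at the start, and their part was not tested.

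In Bin-2 under lonafarnib, the members' calls were falls at the midpoint and rises from midpoint to end, the direction of most calls over all genes too. Of the calls over all genes, 27.0% were higher at the midpoint and 66.5% from midpoint to end. Under quantile normalization these shares were 46.7% and 51.5%. At the midpoint 0 of 29 were higher and 3 lower, where 16.5% of all genes were called, 4.45% higher and 12% lower. From midpoint to end 6 rose and 0 fell, where 29.7% were called, 19.8% higher and 9.97% lower. Against the start, 1 was higher and 1 lower at the end, where 8.07% were called, 4.66% higher and 3.41% lower. Ifit2 read 5.66, 5.21 and 5.82 at the start, 4.93, 5.05 and 5.10 at the midpoint and 6.00, 5.85 and 5.64 at the end. It was 0.80 ± 0.18 higher at the end than at the midpoint (adjusted p = 0.00103). Irf1 read 8.00, 7.68 and 7.93 at the start, 7.38, 7.43 and 7.52 at the midpoint and 8.06, 7.95 and 8.03 at the end, 0.57 ± 0.11 above the midpoint (adjusted p = 0.000174). For both genes the midpoint arrays lay below all others of the course.

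The midpoint falls against the start in that course were less secure. Ifit2 was 0.54 lower (adjusted p = 0.0373), lost without start replicate 1 or 3 or any midpoint array (-0.41 to -0.58, adjusted p 0.0582 to 0.188). Xaf1 was 0.50 lower (adjusted p = 0.0141), lost without start replicate 2 (-0.35, adjusted p = 0.115) or midpoint replicate 2 (-0.47, adjusted p = 0.0568). Irf1 was 0.42 lower (adjusted p = 0.0071), not called under quantile normalization (-0.22, adjusted p = 0.186) or with the mean of its probesets (-0.10, adjusted p = 0.553). The midpoint arrays were the ones with the narrower spread of values. The macrophage mean of this course was 5.40 to 5.89 at the start, 6.90 to 7.28 at the midpoint and 6.12 to 6.67 at the end, with 7 of 12 markers called higher at the midpoint. The pre-B mean was 9.05 to 9.22 at the start, 8.73 to 8.88 at the midpoint and 9.20 to 9.24 at the end, with 4 of 11 markers called lower at the midpoint. The fibroblast mean was 4.78 to 5.23 at the midpoint, against 4.44 to 4.52 at the start, and the part of the spread or of any of these cells was not tested. Between midpoint and end Ifih1 rose by 0.50 (adjusted p = 0.023), Trim30a by 0.44 (adjusted p = 0.0189), Stat2 by 0.42 (adjusted p = 0.00552) and Parp9 by 0.30 (adjusted p = 0.0254). Quantile normalization took these to 0.44, 0.24, 0.15 and 0.05, none of them called, and all but Stat2 were lost without 1 or more single arrays, midpoint replicate 2 among them (0.40 for Ifih1, 0.33 for Trim30a and 0.24 for Parp9).

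Ifih1 ended the Bin-2 lonafarnib course above its start. It read 5.71, 5.52 and 5.76 at the start, 6.10, 5.64 and 5.80 at the midpoint and 6.46, 6.26 and 6.33 at the end. The end arrays lay above all others, 0.69 ± 0.17 over the start (1.61-fold, adjusted p = 0.00714). Xaf1 stayed low, 0.53 under the start at the end (adjusted p = 0.013), with 5.28, 5.50 and 5.32 at the end, against 5.65, 6.19 and 5.86 at the start. That call was lost without start replicate 2 (-0.39, adjusted p = 0.135) or end replicate 1 or 3 (-0.49 and -0.51, adjusted p 0.0615 and 0.0548).

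**Figure D3:**
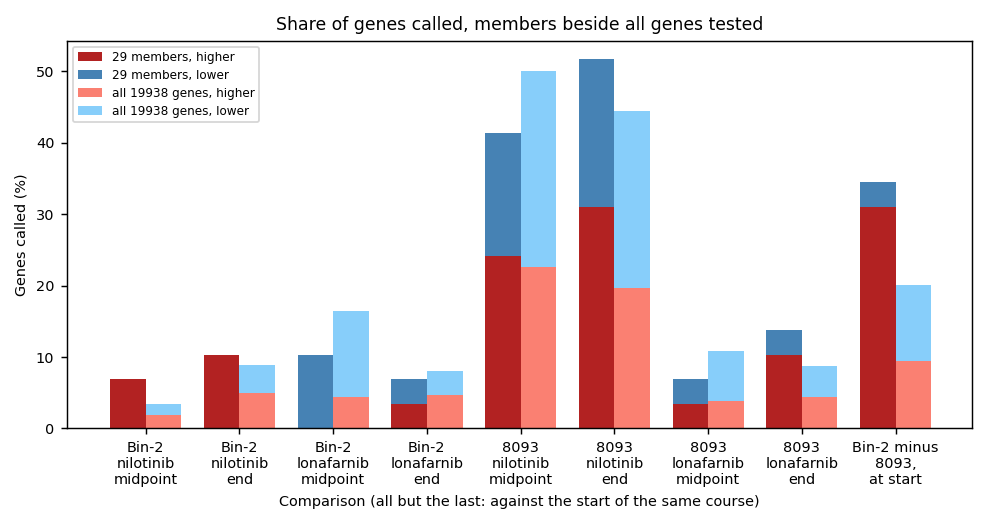
Share of the 29 members called higher (dark red) and lower (dark blue), beside the same shares of all 19938 genes (light), in percent, for 8 comparisons with the start of the same course and for Bin-2 against 8093 at the start. The members' bar was shorter than that of all genes at the 8093 nilotinib midpoint (50.1% of all genes). It was also shorter at the lonafarnib midpoints (10.8% in 8093 and 16.5% in Bin-2) and at the Bin-2 lonafarnib end (8.07%). Before drug 9 of 29 members were called higher in Bin-2 than in 8093, against 9.47% of all genes.

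In Bin-2 the drugs differed in 1 member at the midpoint and in 2 at the end. At the midpoint 1 was higher and 0 lower under nilotinib, where 1.48% of all genes were called, 1.04% higher and 0.441% lower. Of the 29 differences 27 were positive, with a median of 0.29, against 0.03 over all genes. With genes of mean signal under 5 left out, the median of all genes was 0.11. Of their calls 82.6% were higher, against 70.2% with all genes, a share that quantile normalization took to 49.5%. The lonafarnib midpoint arrays had the narrower spread of values, whose part was not tested. The called member was Xaf1, at 0.90 ± 0.20 (adjusted p = 0.015), lost without nilotinib start replicate 1 or 2 or lonafarnib start replicate 2 (0.76 to 0.86, adjusted p 0.051 to 0.0617). At the end 2 were higher and 0 lower under nilotinib, where 9.51% were called, 4.65% higher and 4.86% lower. These were Oasl2, at 0.88 ± 0.28 (adjusted p = 0.0421), and Samhd1, at 0.77 ± 0.22 (adjusted p = 0.0253). Oasl2 was lost without 9 of the 12 arrays taken singly (0.63 to 0.90, adjusted p 0.0657 to 0.168) and under quantile normalization (0.73, adjusted p = 0.104), and Samhd1 without 6 of them (0.71 to 0.74, adjusted p 0.0549 to 0.072).

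The changes of the members in the nilotinib courses differed between the lines, and so did the cell markers. At the end the pre-B mean was 5.18 to 5.32 in 8093 and 8.98 to 9.22 in Bin-2. The mast cell mean was 11.61 to 11.67 in 8093 and 7.42 to 7.68 in Bin-2. At the midpoint the mast cell mean was 9.41 to 10.30 in 8093 and 4.20 to 4.70 in Bin-2. The part of these markers in the differences was not tested. For the end change, 7 members were higher and 4 lower in Bin-2 than in 8093, where 30.6% of all genes were called, 15.6% higher and 15% lower. The largest differences were in Gbp3, at 2.16 ± 0.19 (adjusted p = 2.12e-10), in Usp18, at -1.63 ± 0.28 (adjusted p = 2.36e-05), and in Trim30a, at -1.61 ± 0.21 (adjusted p = 3.74e-07). In Bin-2 the end changes of these genes were -0.02, -0.10 and -0.02, none of them called, beside -2.18, 1.53 and 1.59 in 8093. For the midpoint change, 3 were higher and 1 lower in Bin-2, where 26% were called, 18% higher and 8.01% lower. The largest differences were in Gbp3 (1.25 ± 0.18, adjusted p = 5.71e-06), Bst2 (0.88 ± 0.18, adjusted p = 0.000355) and Stat2 (-0.50 ± 0.16, adjusted p = 0.0181). Stat2 was lost without 8093 start replicate 2, 8093 midpoint replicate 2 or Bin-2 start replicate 3 (-0.40 to -0.45, adjusted p 0.0542 to 0.07).

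Under lonafarnib few differences between the lines passed the test. At the midpoint 0 were higher and 1 lower in Bin-2, where 4.2% of all genes were called, 0.843% higher and 3.36% lower. The called gene was Xaf1 (-0.71 ± 0.20, adjusted p = 0.0358), lost without any of 7 of the 12 arrays (-0.54 to -0.73, adjusted p 0.0603 to 0.153). At the end 0 of 29 passed in limma, where 4.61% of all genes did, 2.12% higher and 2.49% lower, with 6 members at an unadjusted p under 0.05, and the alternatives gave 0 to 2 calls. Doses differ between the lines in each drug, so line and dose cannot be told apart. Days differ too, except at the nilotinib midpoint, which was day 3 in both lines.

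Before any drug, Trim30a, Gbp3, Dhx58 and 6 other members were higher in Bin-2 than in 8093. Over 6 start arrays of each line, 9 of the 29 were higher and 1 lower in Bin-2, where 20.1% of all genes were called, 9.47% higher and 10.6% lower. In all, 26 of the 29 differences were positive, with a median of 0.22, against 0.00 over all genes. All 10 calls held in every alternative setting run. The lines come from mice of different backgrounds and from 1 mouse each, so strain, mouse and leukemia cannot be told apart.

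Trim30a led the difference at the start. Its arrays read 8.65, 8.82 and 8.88 (nilotinib course) and 8.46, 8.59 and 8.60 (lonafarnib course) in Bin-2, against 7.72, 7.73 and 8.00 and 7.60, 7.63 and 7.30 in 8093, a difference of 1.00 ± 0.10 (2.01-fold, adjusted p = 2.96e-09). Gbp3 read 8.55, 8.63 and 8.71 and 8.63, 8.25 and 8.72 in Bin-2, against 7.57, 7.57 and 7.59 and 7.70, 7.64 and 7.54 in 8093 (0.98 ± 0.09, adjusted p = 6.72e-10). In both genes all Bin-2 arrays lay above all 8093 arrays, in each course taken alone too. Dhx58 read 6.93, 7.11 and 6.91 and 6.99, 6.45 and 6.88 in Bin-2, against 5.73, 5.89 and 5.76 and 6.03, 6.14 and 6.09 in 8093 (0.94 ± 0.10, adjusted p = 2.24e-08).

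Smaller differences of the same sign were found in Usp18 (0.77 ± 0.13), Xaf1 (0.68 ± 0.10), Eif2ak2 (0.49 ± 0.10), Parp14 (0.44 ± 0.09), Irf9 (0.29 ± 0.08) and Stat2 (0.28 ± 0.08), with adjusted p between 3.46e-06 and 0.0102. Among the 10 called members the arrays of the lines overlapped in Stat2 and not in the other 9, where 13% of all genes were called with no overlap. Cmpk2 alone was called lower in Bin-2, at -0.59 ± 0.10 (1.5-fold, adjusted p = 5.28e-05), with 4.84, 5.22 and 5.26 and 5.04, 4.90 and 4.56 in Bin-2, against 5.57, 5.41 and 5.39 and 5.62, 5.88 and 5.48 in 8093. The markers differed at the start too. The mean of 8 markers of plasmacytoid dendritic cells was 6.41 to 6.58 in Bin-2 and 5.97 to 6.10 in 8093. The pre-B mean was 9.05 to 9.22 in Bin-2 and 8.31 to 8.57 in 8093. The macrophage mean was 5.40 to 5.96 in Bin-2 and 4.91 to 5.12 in 8093, with 5 of 12 markers called higher and 1 lower, among them Csf1r at 7.40 in Bin-2 and 4.67 in 8093. The part of any of these cell types was not tested.

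**Figure D4:**
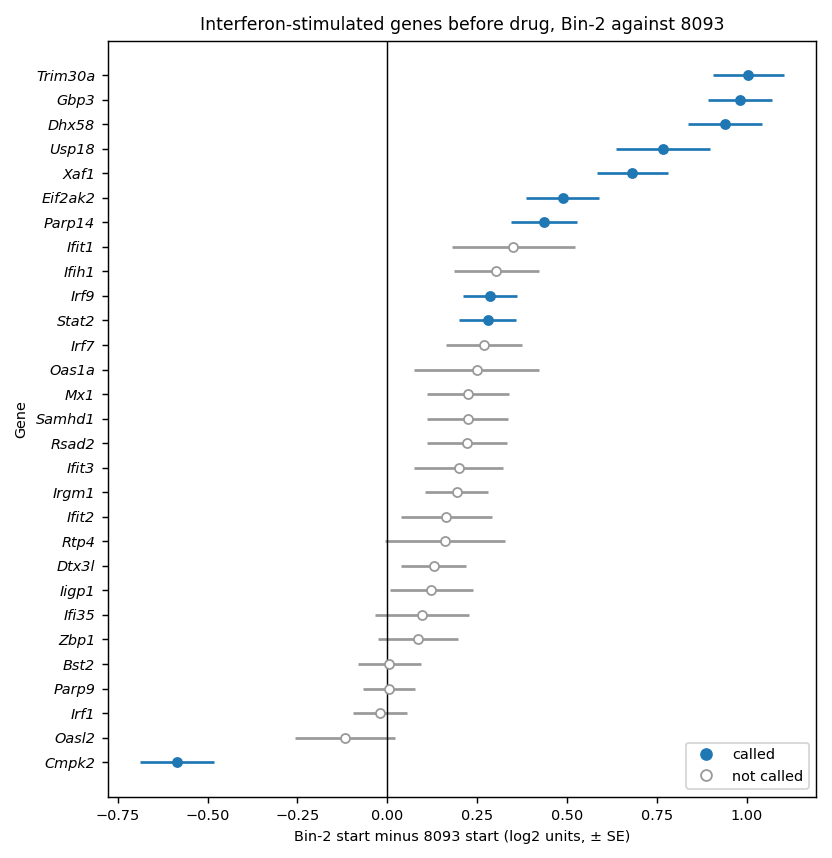
Difference in log2 signal between Bin-2 and 8093 before drug, for each of the 29 members, with its standard error (bars) over 6 arrays of each line. Filled points passed the test. Of the members, 26 lie to the right of 0, from Trim30a at 1.00 down, and Cmpk2 at -0.59 is the 1 called to the left.

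The rest of the pathway was described with 6 lists, whose genes were measured only by probesets listed under their symbol alone. Of the genes named below, Gbp4, Sp100, Psme2, Ifna2, Ifna5, Ifnz and Ifnl2 also lie on probesets listed with several symbols, which were not used. At the end of nilotinib treatment in 8093, 21 of 46 other interferon-stimulated genes were higher and 9 lower than at the start, with a median of 0.29, where 44.5% of all genes were called, 19.6% higher and 24.9% lower. Gbp4, a guanylate-binding GTPase, rose by 4.03 ± 0.19 (10.62 at the end, 6.59 at the start), Sp100, a nuclear body protein, by 2.92 ± 0.22 and Cd274, the checkpoint ligand PD-L1, by 2.85 ± 0.24. Gbp4 and Gbp3, of 1 gene family, thus moved in opposite directions on the same arrays. At the midpoint 16 of the 46 were higher and 7 lower, where 50.1% of all genes were called, 22.6% higher and 27.5% lower, with Cd274 at 2.02, Slfn5 at 2.00 and Gbp4 at 1.62.

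Of 11 genes of MHC class I presentation, 2 were higher and 8 lower at the end of that course, with a median of -1.07. H2-K1 and H2-D1 of this list lie on probesets listed with several symbols and were not analysed. The counts at the end in this paragraph stand beside 44.5% of all genes called, 19.6% higher and 24.9% lower. Nlrc5, the transactivator of MHC class I genes, fell by 2.50 ± 0.21, Psme2, a proteasome activator subunit, by 1.45 ± 0.17 and Psmb10, an immunoproteasome subunit, by 1.38 ± 0.14. Of 10 receptors and signal transducers, 4 were higher and 3 lower: the kinases Jak2 (1.60 ± 0.16) and Jak1 (1.14 ± 0.10) rose, and the interferon-gamma receptor chain Ifngr1 fell (-1.69 ± 0.17). Of 15 upstream sensors and adaptors, 8 were higher and 4 lower, led by the endotoxin receptor Tlr4 (5.27 ± 0.40), the cytosolic DNA adaptor Sting1 (-2.44 ± 0.10) and the endosomal DNA receptor Tlr9 (-1.34 ± 0.15). Of 9 brakes on the pathway, 4 were higher and 1 lower, with the phosphatase Ptpn2 at 2.19 ± 0.17. Of the 15 interferon genes measured, 0 were higher and 1, Ifna2, was lower (-0.74 ± 0.22) at the end. At the midpoint 4 were higher and 2 lower, with Ifnz at 1.30, Ifnl2 at 1.06 and Ifna5 at 0.96. There 50.1% of all genes were called, 22.6% higher and 27.5% lower. The mean of the 15 interferon genes was 4.12 to 4.27 at the start and 4.18 to 4.40 at the midpoint. These means lay near the lower quartile of all genes (4.08), where a low signal cannot be told apart from background. Those midpoint arrays had the narrower spread of values, whose part was not tested.

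In Bin-2 the other interferon-stimulated genes ended apart under the 2 drugs. Under nilotinib 9 of 46 were higher and 1 lower at the end, where 8.89% of all genes were called, 4.95% higher and 3.94% lower. Among them were Slfn5 at 1.30 ± 0.25, Ifitm3, a membrane protein that blocks viral entry, at 1.24 ± 0.18 and Cd274 at 1.19 ± 0.21. Under lonafarnib 2 were higher and 7 lower, where 8.07% of all genes were called, 4.66% higher and 3.41% lower. Among them were Ifitm3 at -1.79 ± 0.18, Lgals9, a galectin, at -1.16 ± 0.10 and Oasl1 at -0.99 ± 0.15. Of the 46 differences between these end changes, 11 were called higher and 3 lower under nilotinib, beside the 9.51% of all genes given above. The interferon genes had 0 calls of 15 in limma at the end of Bin-2 nilotinib, Bin-2 lonafarnib and 8093 lonafarnib treatment. There 3, 2 and 1 of them had an unadjusted p under 0.05, and 8.89%, 8.07% and 8.71% of all genes were called.

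At the start, 24 of the 46 other interferon-stimulated genes were higher and 5 lower in Bin-2 than in 8093, with a median of 0.31, where 20.1% of all genes were called, 9.47% higher and 10.6% lower. Ddx60, a helicase-like cofactor of RNA sensors, averaged 5.26 in Bin-2 and 3.96 in 8093 (1.30 ± 0.14), Mx2 differed by 1.08 ± 0.18 and Gbp4 by 0.89 ± 0.12. Of 11 MHC class I presentation genes, again without H2-K1 and H2-D1, 7 were higher and 1 lower in Bin-2, beside the same shares of all genes. Among them were the peptide transporter genes Tap2 at 1.18 ± 0.10 and Tap1 at 0.94 ± 0.09 and the immunoproteasome gene Psmb8 at 0.91 ± 0.08. Ifnar2, a chain of the type I receptor, was 0.52 ± 0.09 higher and Socs1, a brake on JAK kinases, 0.63 lower in Bin-2.

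Of the 29 members, 20 were called in at least 1 of the 21 comparisons. The other 9 were called in none: Dtx3l, Ifi35, Ifit1, Iigp1, Irf7, Mx1, Oas1a, Rsad2 and Zbp1. Rsad2, the antiviral enzyme viperin and a commonly used readout of type I interferon, stood at 4.51 to 4.80 on all arrays of the Bin-2 nilotinib course apart from 1 end array at 4.86, and its changes from the start over the 4 courses lay between -0.20 and 0.28. Irf7 changes lay between -0.42 and 0.33 and Oas1a changes between -0.42 and 0.61. That these 9 missed the threshold does not show that they did not change.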

How the data were processed

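RNA of 34 cultures was hybridised to Affymetrix Mouse Gene 1.0 ST arrays. The deposited values are log2 signals of 35557 probesets (1.02 to 14.37), normalized by the authors; Partek is named in the submitters' processing notes, with no version, and neither its role nor the method of normalization is known from these notes. Probesets listed under 1 symbol (21789) were reduced to the one with the highest mean per gene, giving 19938 genes. A model with 1 mean per group was fitted to all 34 arrays with limma 3.58.1 (R 4.3.3, 22 residual degrees of freedom), with Benjamini-Hochberg adjustment over all genes in each of 21 comparisons and a call at adjusted p under 0.05. The fit was tested on simulated data. Arrays give no read depth, and their number limits the precision.

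The members, role groups, marker lists and pathway lists were chosen with earlier results of these data known. Any member could be named, those with groups that do not overlap first, and up to 3 called genes of largest change per pathway list and per difference of changes. The lonafarnib doses are printed in the unit of the treatment protocol, µM. Alternatives were quantile normalization, the mean of all probesets, leaving out all genes of mean signal under 5 (dim genes), and a trended robust prior. Further ones were only the arrays of the compared courses, a replicate block, and leaving out each array.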

Additional observations from a re-analysis of the deposited data

Results flagged for a closer look

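Differences between the lines or the drugs in the change of a member were tested directly in limma, and up to 3 passing members per contrast are given here. Each value is on the log2 scale, and no explanation was weighed.

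For the nilotinib end change, Bin-2 minus 8093 was 2.16 for Gbp3, -1.63 for Usp18 and -1.61 for Trim30a. For the nilotinib midpoint change it was 1.25 for Gbp3, 0.88 for Bst2 and -0.50 for Stat2. For the lonafarnib midpoint change it was -0.71 for Xaf1.

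For the 8093 end change, nilotinib minus lonafarnib was -2.68 for Gbp3, -1.86 for Ifit2 and 1.60 for Usp18. For the 8093 midpoint change it was -0.98 for Gbp3, -0.85 for Bst2 and 0.59 for Parp14. For the Bin-2 end change it was 0.88 for Oasl2 and 0.77 for Samhd1, and for the Bin-2 midpoint change 0.90 for Xaf1. The calls for Stat2, Xaf1, Oasl2 and Samhd1 were lost when single arrays were left out, with the values given beside each.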

How the results depend on the processing

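Of 107 calls of members over the 21 comparisons, 59 held in every alternative run and 48 were lost in at least 1. Quantile normalization reversed 2 calls, Parp9 at the 8093 nilotinib midpoint (0.0033) and Irf9 from midpoint to end of that course (-0.0267), and the cause was not tested. The numbers of members called moved by over 1.5 times as follows. With only the arrays of the compared courses, 1 member was called at the Bin-2 nilotinib midpoint, 1 at its end and 0 from its midpoint to its end, 1 at the Bin-2 lonafarnib end, 2 and 0 in the line differences at the nilotinib and lonafarnib midpoints, and 2 and 1 in the drug differences at the Bin-2 midpoint and end. Under quantile normalization, 2 were called from midpoint to end in Bin-2 nilotinib, 1 in the line difference at the lonafarnib end, and 7 and 1 in the drug differences at the 8093 midpoint and the Bin-2 end. With all dim genes left out, the fit and the adjustment ran on 11347 genes. The counts of members were then 2 from midpoint to end in Bin-2 nilotinib and 4 at the Bin-2 lonafarnib end. They were 2 in the line difference at the lonafarnib end and 5 in the drug difference at the 8093 midpoint. The mean of all probesets gave 1 at the 8093 lonafarnib midpoint, and the trended robust prior 1 in the line difference at the lonafarnib end.

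Leaving out 1 array at a time gave, at midpoint, at end and from midpoint to end, 10 to 13, 12 to 15 and 10 to 13 calls in 8093 nilotinib, 0 to 2, 1 to 4 and 2 to 3 in 8093 lonafarnib, 0 to 1, 1 to 4 and 0 to 1 in Bin-2 nilotinib and 1 to 4, 1 to 2 and 3 to 6 in Bin-2 lonafarnib. It gave 10 to 12 at the start. The line differences gave 2 to 5 and 9 to 13 calls in nilotinib and 0 to 1 and 0 to 2 in lonafarnib, and the drug differences 3 to 4 and 10 to 13 in 8093 and 0 to 1 and 0 to 3 in Bin-2.

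Deviations of same-numbered arrays from their group means correlated little: of 32 pairs, 2 correlated above 0.1 (range -0.183 to 0.164). With so few arrays per group, this cannot show whether same-numbered arrays share more than a number. With a replicate block, 1 member was called at the 8093 lonafarnib midpoint and 1 in the line difference at the lonafarnib end, and 104 of 107 calls held. Quantile normalization moved the share of higher calls among all called genes by over 10 points: to 51.4% from 36.0% at the 8093 lonafarnib midpoint, to 46.7% from 27.0% at the Bin-2 lonafarnib midpoint, to 51.5% from 66.5% from its midpoint to its end, to 56.0% from 69.2% and to 34.3% from 20.0% in the line differences at the nilotinib and lonafarnib midpoints, and to 49.5% from 70.2% in the drug difference at the Bin-2 midpoint. It moved the median of all genes from midpoint to end in 8093 nilotinib to -0.04, against -0.15 as deposited. With dim genes left out (11347 genes), the share of higher calls was 31.6%, against 45.1%, at the 8093 nilotinib midpoint, 65.1%, against 49.0%, from its midpoint to its end, 14.8%, against 27.0%, at the Bin-2 lonafarnib midpoint, 76.7%, against 66.5%, from its midpoint to its end, and 82.6%, against 70.2%, in the drug difference at the Bin-2 midpoint. The median of all genes then moved to -0.22, 0.20, -0.13, 0.16 and 0.11 in these, and to 0.20 and -0.18 in the line difference at the nilotinib midpoint and the drug difference at the 8093 midpoint.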
